A study of Mus musculus with 8 samples.

Results

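The genes described here are 9 genes that estrogen regulates in the epithelium of the uterus, or that code for mucins and mucus proteins of epithelial surfaces: Ltf, Muc1, Muc4, Lcn2, Clca1, Olfm1, Padi2, Greb1 and Sprr2f. They were chosen by name, as the probe sets whose only gene symbol in the array's gene table was one of these 9, out of 19938 genes with such a probe set. Each of the 9 had exactly 1 such probe set. The study measured whole uteri on microarrays, with 4 pregnant and 4 pseudopregnant mice, and asked how the uterus differs just before an embryo attaches. All mice were young virgin C57BL/6 females. Pregnant mice were mated with stud males, and pseudopregnant mice with vasectomized males, so that the second set had mated but carried no embryos. Uteri were taken on day 3 at 22 h, counted from the mating night as day 0. A pregnant uterus was included only if injected blue dye had not yet marked an attachment site and healthy-looking blastocysts could be flushed from it. Within each group, the samples with the best RNA were taken. RNA came from the whole uterus, so epithelium, glands, stroma, muscle, vessels and immune cells were measured together.

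Estrogen acts in the uterus through its receptor, a transcription factor coded by Esr1. In the luminal epithelium, the cell layer that faces the cavity, it drives cell division, secretion of antimicrobial proteins such as lactotransferrin, and a thick surface coat of mucins. Progesterone, acting through the receptor coded by Pgr, restrains this program in the mouse before implantation, and the mucin coat thins as the epithelium becomes able to bind an embryo.

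The promoter sequences of these genes are shown first, because estrogen reaches its targets both by direct DNA contact and through other bound factors. RefSeq promoter windows on build GRCm38.p6, which run from 250 bases before to 50 bases after each start site, were available for 8 of the 9 genes, in 10 windows. The palindromic estrogen response element GGTCANNNTGACC, searched on both strands, was in 0 of these 10 windows, and in 0.0700% of all 32851 windows. Its 5-base arm GGTCA was in 5 of the 10 windows, those of Ltf, Greb1, Olfm1 and Sprr2f, against 40.5% of all windows. A match to so short a string is a description of the letters and not of a bound site, and an absent match says nothing about sites elsewhere. The motifs were chosen after these sequences had been seen. The stretches of Ltf and Greb1 that hold the arm are shown as examples of its setting, on the strand of the gene, with GGTCA or its reverse complement TGACC in capitals. The Ltf stretch is at chr9:111019229-111019269 (plus strand), and that of Greb1, from the first of its 2 windows, is at chr12:16800952-16800992 (minus strand).
Ltf: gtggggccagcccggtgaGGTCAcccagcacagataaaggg
Greb1: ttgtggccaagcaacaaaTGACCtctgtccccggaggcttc

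The Muc1 promoter held another kind of element. GC boxes (GGGCGG), the sites known for binding Sp1, were in the windows of Muc1, Lcn2, Olfm1 and Padi2, against 35.7% of all windows. A TATA box (TATAAA) was in those of Muc1, Muc4 and Sprr2f, against 13.6% of all windows. The last 100 bases before the Muc1 start site, at chr3:89228956-89229055 (plus strand), are shown with the GC boxes and the TATA box in capitals.
Muc1: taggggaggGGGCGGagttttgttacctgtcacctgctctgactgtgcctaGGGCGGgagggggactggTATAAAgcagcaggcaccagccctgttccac

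The Sprr2 genes lie side by side on chromosome 3, and most of their promoters resemble that of Sprr2f. Of 10 Sprr2 windows, 7 held an octamer (ATTTGCAT), a TATA box and an AP-1 site (TGANTCA). That combination was in 16 of all 32851 windows (0.0487%), these 7 included. AP-1, a Fos and Jun dimer, is one of the factors that can carry the estrogen receptor to DNA. Among the 8 genes with a window, the octamer and the AP-1 site were in that of Sprr2f and in no other, against 1.74% and 7.81% of all windows. The 200 bases before the start site of Sprr2f matched those of Sprr2e at 78.4% of aligned positions, those of Sprr2d at 75.5% and those of Sprr2k at 66.2%. Those of Sprr2a1, Sprr2a2 and Sprr2a3 matched at only 46.1%, 46.1% and 46.0%, no more than those of Sprr4 at 46.3%. The stretches of Sprr2f, Sprr2e, Sprr2d and Sprr2k are shown, on the plus strand, with the AP-1 site, octamer and TATA box in capitals. The array values of these relatives are compared further on. Sprr2g, which is also compared there, had no promoter window, so its promoter is not described. Sprr2f is at chr3:92364987-92365186, Sprr2e at chr3:92351943-92352142, Sprr2d at chr3:92338940-92339139 and Sprr2k at chr3:92432382-92432581.
Sprr2f: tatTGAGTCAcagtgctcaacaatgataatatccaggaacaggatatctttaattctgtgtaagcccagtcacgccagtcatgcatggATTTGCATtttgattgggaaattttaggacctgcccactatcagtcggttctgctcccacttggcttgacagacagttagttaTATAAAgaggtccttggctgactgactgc
Sprr2e: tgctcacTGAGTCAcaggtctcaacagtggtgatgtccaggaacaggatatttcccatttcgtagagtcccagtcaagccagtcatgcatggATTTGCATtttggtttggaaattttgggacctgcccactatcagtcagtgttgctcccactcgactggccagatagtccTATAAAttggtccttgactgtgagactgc
Sprr2d: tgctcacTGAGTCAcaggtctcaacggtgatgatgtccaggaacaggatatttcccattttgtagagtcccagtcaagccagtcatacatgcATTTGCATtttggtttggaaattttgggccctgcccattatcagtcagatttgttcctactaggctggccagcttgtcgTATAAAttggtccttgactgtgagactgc
Sprr2k: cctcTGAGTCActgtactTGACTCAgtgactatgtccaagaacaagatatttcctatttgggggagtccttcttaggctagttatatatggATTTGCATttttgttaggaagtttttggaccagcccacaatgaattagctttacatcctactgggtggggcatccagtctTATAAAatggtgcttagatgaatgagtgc

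The deposited values were linear array intensities, and all levels below are their log2. Array medians lay between 55.2 and 56.3 on the linear scale. A probe set was tested where at least 4 of 8 arrays exceeded the 40th percentile of their own array, a line between 5.23 and 5.32 on the log2 scale, which left 17491 probe sets. This line is a fixed share of each array's own probe sets, so a value below it is not a test of absence. Of the 9 genes, 8 passed on all 8 arrays, and Clca1 did not pass. On the first principal component, which held 46.1% of the variance, pregnant replicate 2 stood apart at -26.7, against -6.63 to -4.90 for the other pregnant arrays. Pseudopregnant replicate 1 lay at 20.3, against 6.76 to 9.32 for the others of its group. Pregnant replicate 2 was the highest of its group for 6 of the 9 genes and the lowest for 2. Over all tested probe sets it was highest for 27.3% and lowest for 32.8%. For those of the 9 genes whose difference turned sign or moved by over 1.5 times without it, that value is given too.

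None of the 8 tested genes passed the threshold of 0.05 for the adjusted p in limma (Benjamini-Hochberg over all 17491 probe sets), a threshold that 1.82% of all tested probe sets passed. By p-values under 0.05 before adjustment the count was 1, Muc1, against 23.7% of all probe sets. Of the 17491 probe sets, 2499 were higher and 1650 lower by that p, the background for the lists below. The median difference, pregnant minus pseudopregnant, was 0.09 over the 8 genes and 0.0019 over all probe sets, with 5 genes above 0 and 3 below. Among all probe sets 8845 were above 0 and 8646 below. In 2 genes the groups did not overlap: Muc1 was lower on all 4 pregnant arrays and Olfm1 was higher. Over all probe sets the groups were apart in 14.6%, with the pregnant arrays lower in 5.39% and higher in 9.23%. The spread among mice of 1 group was wide. All 8 varied more within groups than the median probe set, whose standard deviation was 0.10, and 6 of the 8 were in the top 10% of probe sets by that spread. This was not particular to them, since 11 of 15 other estrogen-responsive epithelial genes, 10 of 16 epithelial markers and 6 of 9 gland genes were there too. For Muc1, Muc4 and Olfm1 the spread lay in the pregnant group, with standard deviations of 0.28, 0.20 and 0.50 there, against 0.045, 0.023 and 0.044 in the pseudopregnant group.

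**Figure D1:**
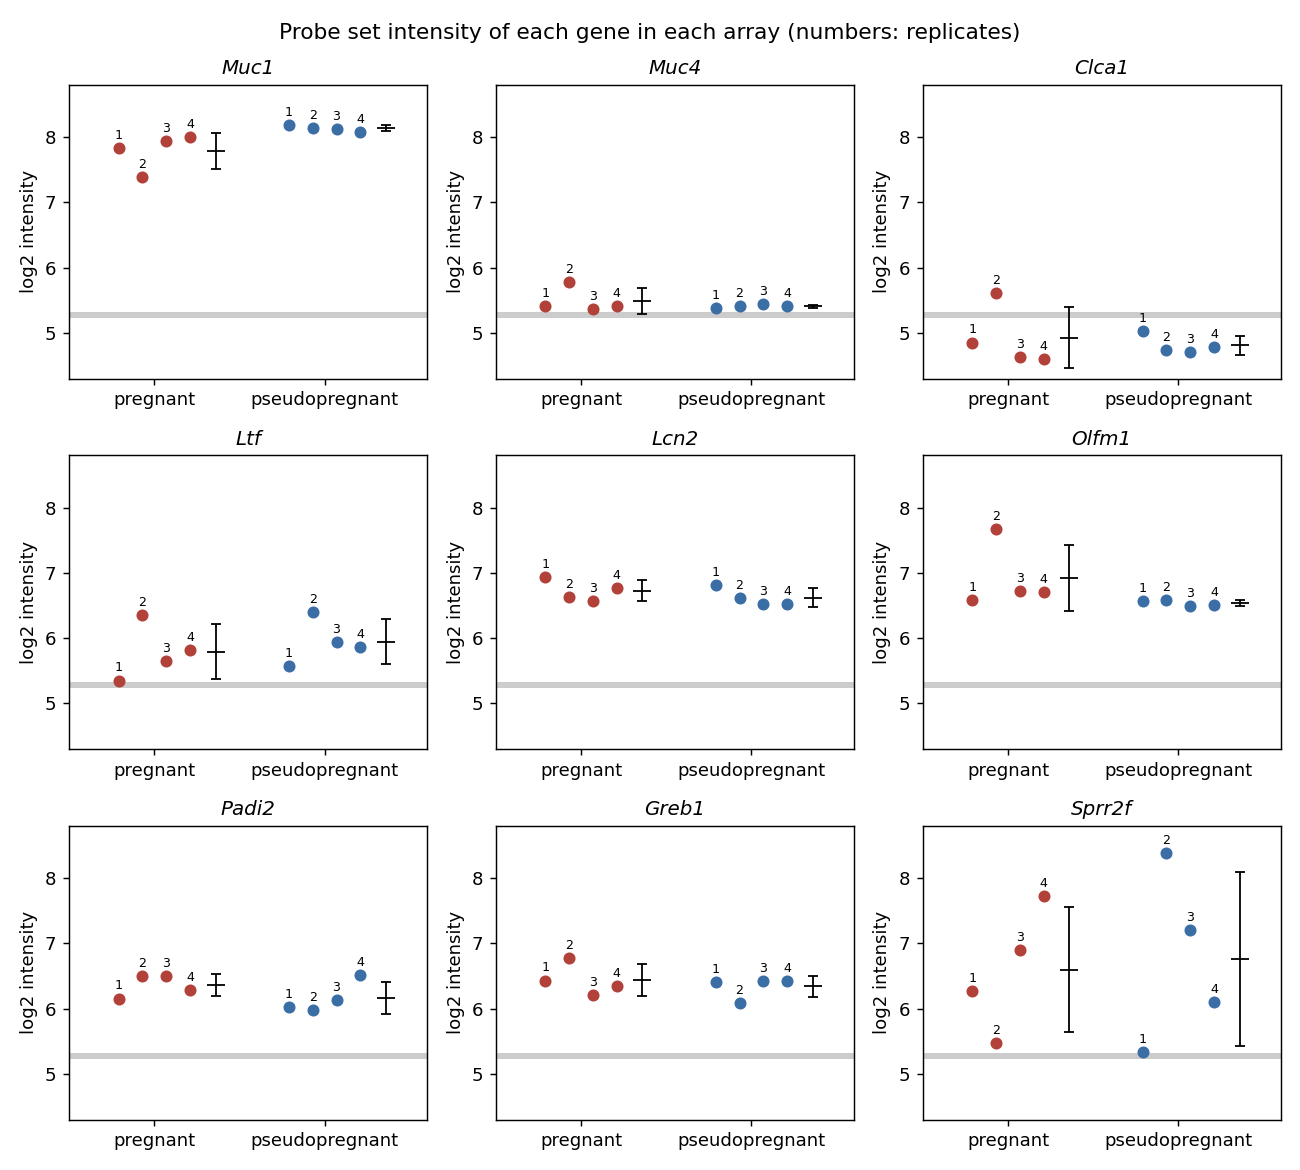
Log2 intensity of the 9 genes on each array, 1 panel a gene and the same scale in all, pregnant arrays left and pseudopregnant arrays right. Black marks are group means with SD, and the grey band is the range of the filter line over the arrays. Sprr2f ranges over more than any other of the genes in both groups, and Muc1 and Olfm1 are the genes whose groups do not overlap.

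**Figure D2:**
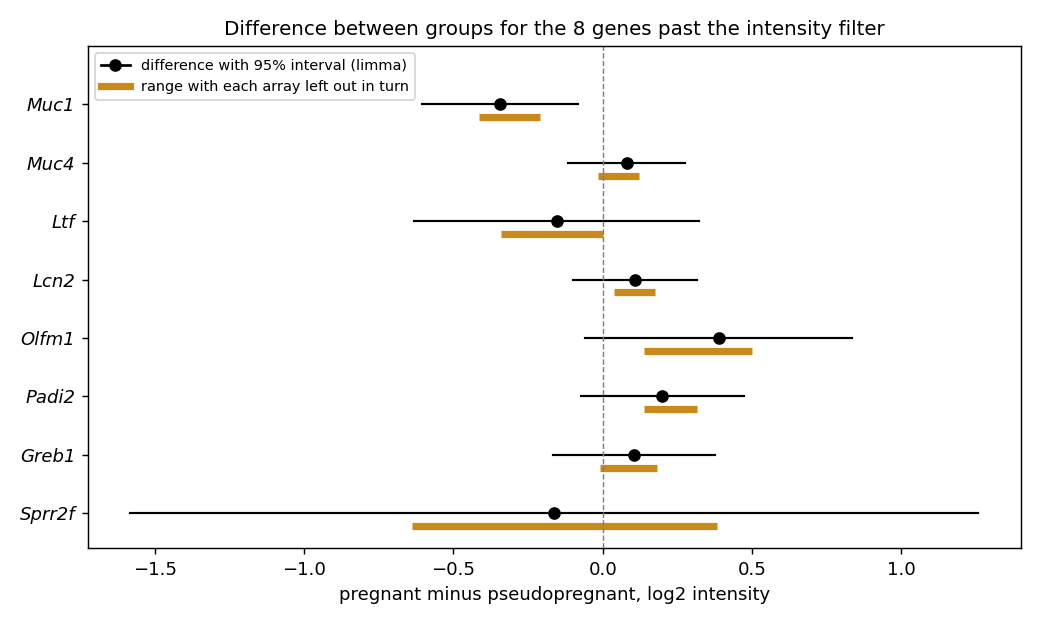
Difference in log2 intensity, pregnant minus pseudopregnant, with its 95% confidence interval from limma for the 8 tested genes (black) and the range of the difference with each array left out in turn (orange). The intervals of all but Muc1 include 0, and that of Sprr2f is the widest, from -1.58 to 1.26.

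Muc1 codes for the main membrane mucin of the uterine surface, a large glycoprotein that is thought to keep an embryo from touching the cells beneath. Its log2 intensity was 7.84, 7.39, 7.94 and 8.01 on the pregnant arrays, against 8.19, 8.15, 8.13 and 8.08 on the pseudopregnant arrays. All 4 pregnant values were below all 4 pseudopregnant values, and the pregnant values were the more scattered. The means were 7.79 ± 0.28 in pregnant uteri and 8.13 ± 0.045 in pseudopregnant uteri (SD, n = 4 each). The difference was -0.34 ± 0.12 (SE), or 0.788-fold with a 95% interval from 0.658 to 0.945, and it did not pass the adjusted threshold (limma adjusted p = 0.12). The exact permutation test over the 70 arrangements of 8 arrays gave a two-sided p of 0.029, the smallest that 4 against 4 can give. Any probe set whose groups are apart reaches it, which was 14.6% of all tested. Without pregnant replicate 2 the difference was -0.21 (limma adjusted p = 0.12). In whole tissue, fewer epithelial cells and less Muc1 RNA per cell cannot be told apart.

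Most markers of the epithelium, but not all, lay on the same side as Muc1. Of 16 epithelial genes, none passed the adjusted threshold in limma, 1 was higher and 5 lower by p-values under 0.05 before adjustment, and 12 had a difference below 0, with a median of -0.16 (-0.22 to -0.10 with any 1 array left out). Among all 17491 tested probe sets, 2499 were higher, 1650 lower and 8646 below 0 by the same measures. The summed linear intensity of the 16 genes was 2695 to 3237 in pregnant uteri, against 3082 to 3995 in pseudopregnant uteri. Cldn3, a tight junction claudin, differed by -0.44 ± 0.15 (SE, adjusted p = 0.12) and Krt19, a keratin of simple epithelia, by -0.46 ± 0.17 (SE, adjusted p = 0.15). Elf3, an epithelial transcription factor, differed by -0.40 (adjusted p = 0.15), whereas Krt7, another keratin, differed by 0.27 (adjusted p = 0.14). In the same list, Epcam differed by 0.02 (limma adjusted p = 0.94) and Cdh1 by -0.12 (limma adjusted p = 0.61). The part of the epithelial marker level in the Muc1 difference was not tested.

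Muc4, a membrane mucin known to bind the receptor ErbB2, lay close to the filter line. It had a log2 intensity of 5.41, 5.78, 5.37 and 5.41 on the pregnant arrays, against 5.38, 5.41, 5.44 and 5.41 on the pseudopregnant arrays. The 8 values differed little except on pregnant replicate 2, which was the highest. The difference was 0.08 ± 0.088 (SE), with a limma adjusted p of 0.60 and a 95% interval from -0.11 to 0.28, and it was -0.016 without pregnant replicate 2. Muc1 and Muc4, the 2 members of the mucin family here, thus had differences of opposite sign, neither past the threshold.

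Clca1 codes for a secreted protein of mucus-producing goblet cells, better known from airway and gut. It was above the line on 1 array, pregnant replicate 2. It measured 4.85, 5.61, 4.64 and 4.60 (log2 intensity) in pregnant uteri, against 5.03, 4.74, 4.71 and 4.78 in pseudopregnant uteri. Apart from that 1 array, the values lay below the line, and no test was run across genes. The difference was 0.11, and -0.12 without pregnant replicate 2. Of 7 measured members of the Clca family, 3 were tested. Clca2 differed by -0.31 ± 0.11 (SE, limma adjusted p = 0.13), or -0.20 without pregnant replicate 2, Clca3a1 by -0.11 (adjusted p = 0.73) and Clca3a2 by -0.01 (adjusted p = 0.96). Clca3a1 and Clca3a2 were above 0 without that array, at 0.08 and 0.07.

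Many other mucin and glycocalyx genes lay below the line on every array. Of 22 measured mucin and glycocalyx genes, Muc1 and Muc4 included, 10 were tested and 11 were above the line on no array. None passed the adjusted threshold in limma, 2 were higher and 2 lower by p-values under 0.05 before adjustment, and the median difference was -0.03. Podxl, the sialomucin podocalyxin, differed by -0.22 ± 0.08 (SE, adjusted p = 0.15). Sdc1, the heparan sulfate carrier syndecan-1, differed by 0.17 ± 0.07 (SE, adjusted p = 0.17) and Cd164, a small sialomucin, by 0.16 ± 0.07 (SE, adjusted p = 0.21).

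Ltf codes for lactotransferrin, an iron-binding antimicrobial protein that is the classic secreted product of the mouse uterine epithelium under estrogen. Its log2 intensity was 5.35, 6.35, 5.65 and 5.82 on the pregnant arrays, against 5.58, 6.41, 5.94 and 5.87 on the pseudopregnant arrays. Replicate 2 was the highest array in each group, and the groups overlapped over nearly their whole range. The difference was -0.15 ± 0.21 (SE), with a limma adjusted p of 0.69 and a 95% interval from -0.63 to 0.32. Without pregnant replicate 2 the difference was -0.34, and without pseudopregnant replicate 2 it was -0.00054. The within-group standard deviation, 0.38, exceeded that of 98.7% of tested probe sets.

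Lcn2 codes for lipocalin 2, which starves bacteria by binding their iron carriers. Lcn2 had a log2 intensity of 6.94, 6.63, 6.58 and 6.77 in pregnant uteri, against 6.82, 6.62, 6.52 and 6.52 in pseudopregnant uteri. The groups overlapped, and the difference was 0.11 ± 0.094 (SE, limma adjusted p = 0.51). Ltf and Lcn2 thus had differences of opposite sign, with both intervals including 0.

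Both Ltf and Lcn2 are also proteins of neutrophil granules, so the other neutrophil genes are given beside them. Of 13 such genes, none was tested and 10 were above the line on no array. Their summed intensity was 282 to 320 in pregnant uteri, against 269 to 304 in pseudopregnant uteri. These ranges overlapped. Retnlg, a resistin-like gene of neutrophils, stood out from the sum: it was 5.13, 5.22, 6.00 and 5.68 in pregnant uteri, above the line on 2 arrays, against 4.63, 4.76, 4.89 and 4.73 in pseudopregnant uteri. S100a9, a calcium-binding granule protein, was 5.22 to 5.35 in pregnant uteri, also above the line on 2 arrays, against 5.03 to 5.19 in pseudopregnant uteri. Both were picked after their values were seen, and neither was tested across genes. They do not stand for the list. Over its 15 genes, with Ltf and Lcn2 included and no filter, the median difference was -0.05. The part of neutrophils in the Ltf and Lcn2 values was not tested.

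Olfm1 codes for olfactomedin 1, a secreted glycoprotein best known from the nervous system and also present in the endometrium. Its log2 intensity was 6.59, 7.67, 6.73 and 6.71 on the pregnant arrays, against 6.56, 6.59, 6.50 and 6.50 on the pseudopregnant arrays. The groups did not overlap, though the lowest pregnant value and the highest pseudopregnant value were the same to 2 decimals, and pregnant replicate 2 lay far above the rest. The means were 6.93 ± 0.50 in pregnant uteri and 6.54 ± 0.044 in pseudopregnant uteri (SD, n = 4 each). The difference was 0.39 ± 0.20 (SE), with a 95% interval from -0.06 to 0.83, and did not pass the adjusted threshold (limma adjusted p = 0.27). The exact permutation test gave a two-sided p of 0.029, with no adjustment. Every probe set whose groups are apart has this p, which was 14.6% of all tested. Without pregnant replicate 2 the difference was 0.14 (limma adjusted p = 0.24).

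Among the relatives of Olfm1, 1 passed the adjusted threshold in each direction. Olfml2b, a secreted matrix protein of the olfactomedin family, was 7.27, 7.17, 7.20 and 7.28 on the pregnant arrays, against 6.73, 6.96, 6.62 and 6.87 on the pseudopregnant arrays. It rose by 0.44 ± 0.076 (SE) in pregnant uteri (limma adjusted p = 0.030). Olfml2a, its closest relative by name, was 6.28, 6.28, 6.33 and 6.23 on the pregnant arrays, against 6.61, 6.56, 6.56 and 6.63 on the pseudopregnant arrays. It fell by 0.31 on the log2 scale in pregnant uteri (SE 0.048, limma adjusted p = 0.024). The groups were apart for both, and the adjusted threshold passed 1.41% of all probe sets upward and 0.412% downward. These calls were near the threshold: over 17 other settings the adjusted p ran from 0.019 to 0.085 for Olfml2b and from 0.021 to 0.070 for Olfml2a. With the replicate number as a block they were 0.052 for Olfml2b and 0.057 for Olfml2a. Olfml3 differed by 0.31 (adjusted p = 0.17), or 0.18 without pregnant replicate 2, Olfm2 by -0.10 (adjusted p = 0.35) and Olfml1 by -0.01 (adjusted p = 0.98). Olfm3 and Olfm4 were not tested. Olfm4, a secreted protein of epithelial crypts, was above the line on 1 array, and its log2 intensity was 4.51 to 4.91 in pregnant uteri, against 4.97 to 5.35 in pseudopregnant uteri.

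Greb1 codes for a nuclear protein that human breast cancer cells make in response to estrogen and that acts there as a cofactor of the estrogen receptor. Greb1 had a log2 intensity of 6.43, 6.78, 6.21 and 6.35 in pregnant uteri, against 6.41, 6.09, 6.43 and 6.43 in pseudopregnant uteri. In 3 pseudopregnant uteri the values were nearly equal and replicate 2 lay below them, while replicate 2 was the highest of the pregnant group. The difference was 0.10 ± 0.12 (SE), with a limma adjusted p of 0.63 and a 95% interval from -0.17 to 0.38. It was -0.0080 without pregnant replicate 2.

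Padi2 codes for an enzyme that turns arginine into citrulline in proteins, histones included. Padi2 had a log2 intensity of 6.16, 6.50, 6.50 and 6.29 on the pregnant arrays, against 6.03, 5.98, 6.13 and 6.51 on the pseudopregnant arrays. Pseudopregnant replicate 4 reached the highest pregnant values, and the other 3 pseudopregnant arrays lay below all pregnant ones. The difference was 0.20 ± 0.12 (SE), with a limma adjusted p of 0.34 and a 95% interval from -0.07 to 0.47. Its relative Padi1 differed by -0.14 (limma adjusted p = 0.54) and was also highest on pseudopregnant replicate 4, at 6.38.

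Sprr2f codes for a small proline-rich protein of the kind that is cross-linked into the envelope of skin cells, and is strongly induced by estrogen in the mouse uterine epithelium. Sprr2f had a log2 intensity of 6.27, 5.48, 6.90 and 7.73 on the pregnant arrays, against 5.33, 8.39, 7.21 and 6.11 on the pseudopregnant arrays. The lowest and the highest values were both in the pseudopregnant group, and the pregnant values lay between them. The highest was 4.77-fold above the lowest among pregnant uteri and 8.33-fold among pseudopregnant uteri. The lowest pseudopregnant value, 5.33, lay at the line of its array, 5.32, so the 8.33-fold span starts near background. The within-group standard deviation of 1.16 ranked 2 of 17491 tested probe sets. The means were 6.60 ± 0.96 in pregnant uteri and 6.76 ± 1.33 in pseudopregnant uteri (SD, n = 4 each). The difference was -0.16 ± 0.64 (SE, limma adjusted p = 0.89), and its interval, as a fold, ran from 0.334 to 2.39. It was 0.21 without pregnant replicate 2 and 0.38 without pseudopregnant replicate 2. A difference of more than 2-fold in either direction is thus within the interval.

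**Figure D3:**
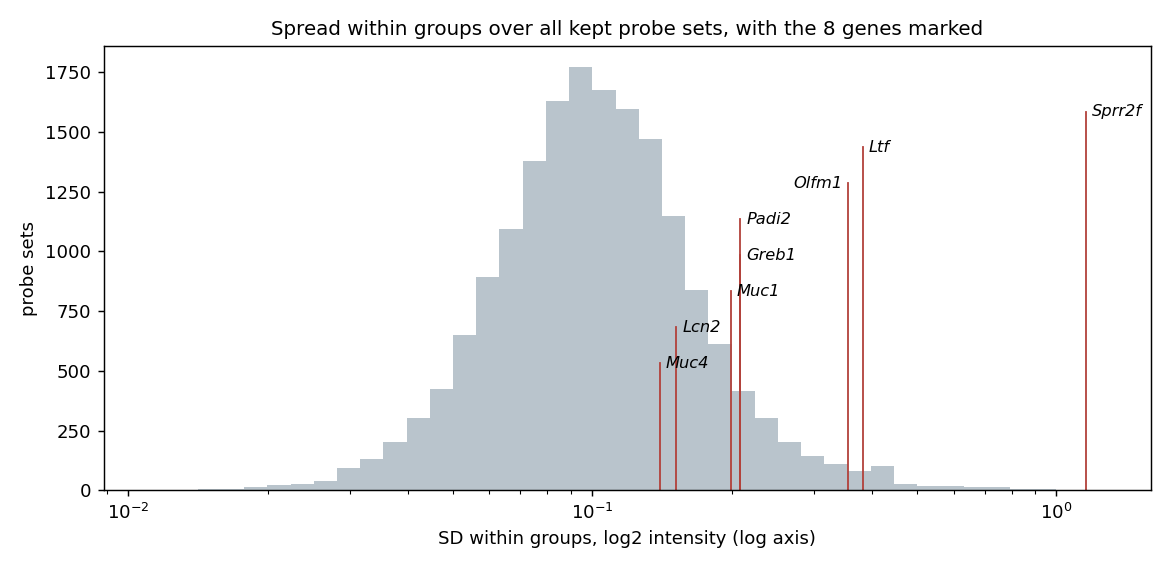
Distribution of the within-group standard deviation of log2 intensity over all tested probe sets, on a log axis, with lines at the values of the 8 tested genes (line heights carry no value). Sprr2f at 1.16 lies at the far right, and the median of all probe sets is 0.10.

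Some relatives of Sprr2f followed it from array to array, and others did not. Likeness is given as the Pearson correlation, over 8 arrays, of each gene's deviation from its own group mean, with no test. It was 0.94 for Sprr2g, 0.76 for Sprr2d, 0.73 for Sprr2i, 0.69 for Sprr2b and 0.53 for Sprr2e. It was 0.07 for Sprr2k and -0.44 for Sprr2h, so that 5 of 7 Sprr2 relatives were above 0.5. Of the 5, Sprr2b, Sprr2e and Sprr2i were above the line on no array, Sprr2g on 1 and Sprr2d on 6, so that most of these values come from probe sets near or below background. Sprr1a, a gene of another branch of the family, ran the other way at -0.91 and was above the line on 5 of 8 arrays. The other relatives were Sprr1b at -0.42, Sprr3 at 0.25 and Sprr4 at -0.60. Of the 12 measured Sprr genes 3 were tested, namely Sprr2f, Sprr2d with a difference of 0.12 (limma adjusted p = 0.75; 0.31 without pregnant replicate 2) and Sprr1a with a difference of 0.01 (adjusted p = 0.98), and 8 were above the line on no array. Close copies may share probe sequence, so shared probes and shared expression cannot be told apart for these genes.

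**Figure D4:**
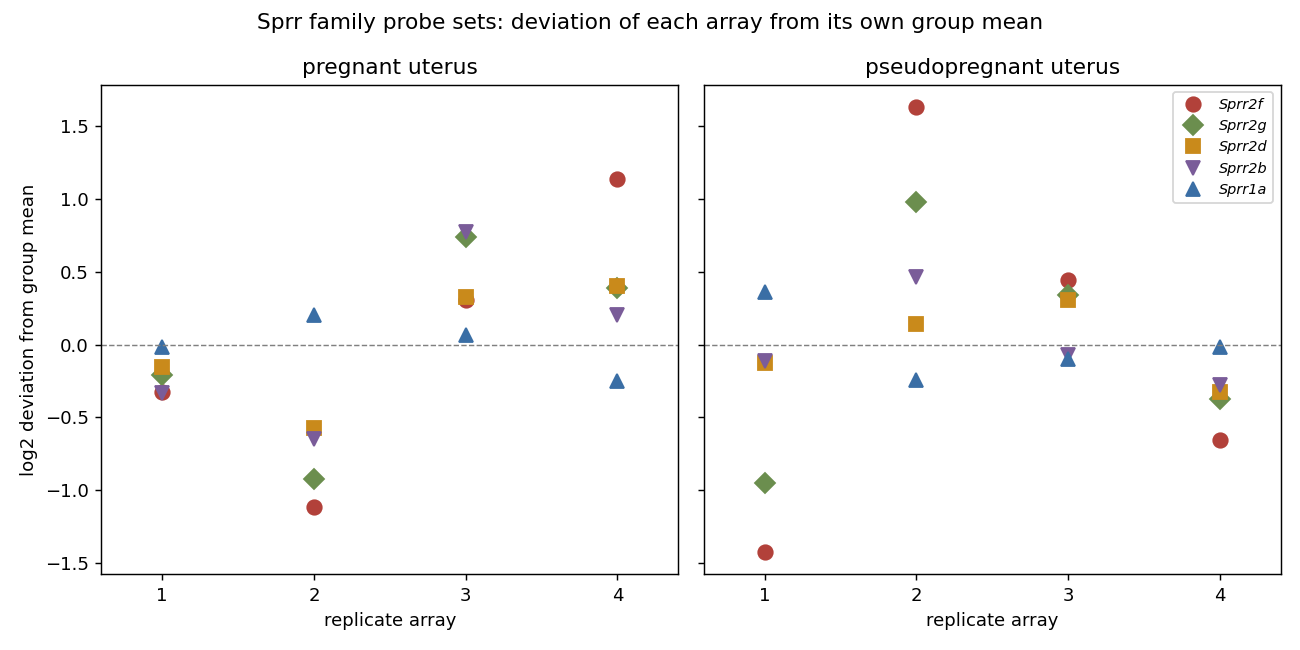
Deviation of log2 intensity from the group mean on each array for 5 Sprr genes, pregnant arrays left and pseudopregnant arrays right. Sprr2g tracks Sprr2f, and Sprr1a runs opposite to it.

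The 8 tested genes did not move as a block from mouse to mouse. Among their 28 pairs, the correlation of deviations exceeded 0.7 in 4 and was below -0.7 in 5. Without pregnant replicate 2, over 7 arrays, the counts were 2 and 2. Muc1 against Muc4 gave -0.96, and -0.29 without that array. Muc4 against Olfm1 gave 0.96, and -0.60 without it. Ltf against Sprr2f changed in the other direction, with 0.32 on 8 arrays and 0.96 without pregnant replicate 2. In the pseudopregnant group these 2 genes put the 4 mice in the same order. Lcn2 against Padi2 gave -0.73 and -0.70, and Greb1 against Sprr2f gave -0.74 and -0.68, with little dependence on that array. Each of these correlations rests on 7 or 8 arrays of RNA from mixed cell types, and the pairs named were picked after their values were seen.

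**Figure D5:**
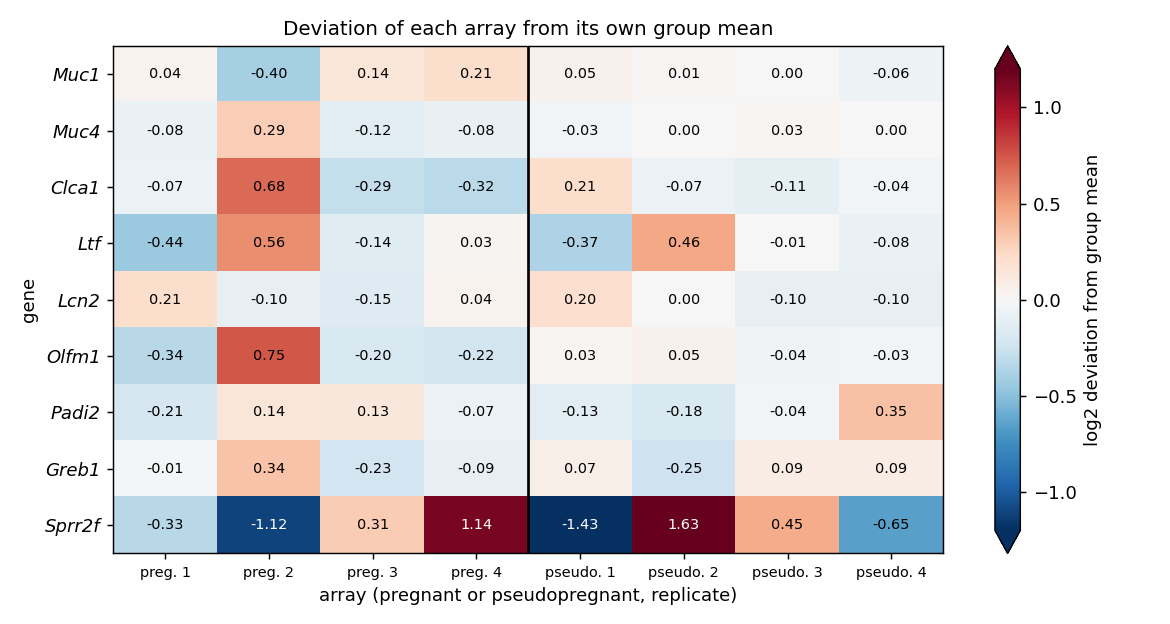
Deviation of log2 intensity from the group mean for the 9 genes (rows) on the 8 arrays (columns), pregnant left and pseudopregnant right. Pregnant replicate 2 is high for Ltf, Muc4, Clca1, Olfm1 and Greb1 and low for Muc1 and Sprr2f.

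The genes whose deviations were most like those of 4 of these genes are given as a description. For Muc1 they were Slc2a3, a glucose transporter, with 0.993, Pla2g10, a secreted phospholipase, with 0.987, and Ap1s3, an adaptor subunit of vesicle coats, with 0.985. These were between 0.813 and 0.921 without pregnant replicate 2. For Ltf the nearest was Eif5a, a translation factor, with 0.985. For Greb1 it was Vtcn1, an inhibitory surface protein of the B7 family, with 0.979. For Sprr2f it was Thoc2l with 0.990, which was 0.987 without pregnant replicate 2. All these genes were picked as the highest correlations in a search over many genes on few arrays. Such a search can give high values by chance alone, and the likeness was not tested. These correlations are therefore not evidence of shared expression.

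The estrogen and progesterone receptors were above the line on all 8 arrays, and neither passed the threshold. Esr1 had a log2 intensity of 9.51 to 9.66 in pregnant uteri, against 9.64 to 9.68 in pseudopregnant uteri, and differed by -0.07 ± 0.052 (SE, limma adjusted p = 0.43). Pgr had 8.74 to 9.01 in pregnant uteri, against 8.81 to 8.94 in pseudopregnant uteri, and differed by 0.03 ± 0.071 (SE, adjusted p = 0.81). Of 16 tested steroid receptors and coregulators none passed the adjusted threshold in limma, and 3 were lower and 0 higher by p-values under 0.05 before adjustment. The smallest p was that of Gata2, a transcription factor linked to the progesterone receptor. It was 8.46, 8.29, 8.40 and 8.35 on the pregnant arrays, against 8.90, 8.72, 8.61 and 8.55 on the pseudopregnant arrays, with groups apart. It differed by -0.32 ± 0.079 (SE, adjusted p = 0.062). Nrip1, a corepressor of nuclear receptors, differed by -0.17 (adjusted p = 0.18) and Gper1, a membrane estrogen receptor, by -0.33 (adjusted p = 0.18). In 1 of 17 alternatives, the trended and robust variance, 1 gene of this list passed as lower. RNA level alone was measured, not receptor protein or hormone.

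Other estrogen-responsive epithelial genes gave no call in limma as run here, and 1 higher call under 3 of 17 alternatives (cyclic loess, array weights, and without pregnant replicate 3). Of 22 measured, 15 were tested, none passed the adjusted threshold in limma, and 1 was higher and 0 lower by p-values under 0.05 before adjustment, with a median difference of 0.01. That gene was Gjb2, the gap junction protein connexin 26. It was 6.30, 6.52, 5.30 and 6.17 on the pregnant arrays, against 5.31, 4.62, 5.11 and 4.48 on the pseudopregnant arrays. It differed by 1.19 ± 0.26 (SE, limma adjusted p = 0.051), and it entered the test only through the pregnant arrays, since all 4 pseudopregnant values lay below the line. Calb1, the calcium-binding protein calbindin of the uterine epithelium, was 8.50, 6.82, 8.74 and 8.18 on the pregnant arrays, against 9.67, 9.25, 8.94 and 8.11 on the pseudopregnant arrays. It differed by -0.94 ± 0.42 (SE, limma adjusted p = 0.21), and by -0.52 without pregnant replicate 2. S100g, a smaller calcium-binding protein, differed by 0.13 (adjusted p = 0.50), or 0.03 without pregnant replicate 2, and Wnt7b, a Wnt ligand, by 0.31 (adjusted p = 0.44), or 0.03 without pregnant replicate 2.

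Genes of the early growth response to estrogen had no call among them, and 1 higher call with the replicate number as a block. Of 25 tested, none passed the adjusted threshold in limma, 7 were higher and 1 lower by p-values under 0.05 before adjustment, and the median difference was 0.00046. Among all 17491 tested probe sets, 2499 were higher and 1650 lower by that p. Gja1, the gap junction protein connexin 43, differed by 0.51 ± 0.13 (SE, adjusted p = 0.068). Fgf2, a fibroblast growth factor, differed by 0.46 ± 0.13 (SE, adjusted p = 0.075). The groups of both were apart, with the pregnant arrays higher.

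A list meant to hold genes that restrain estrogen action in the luminal epithelium had differences below 0 in 7 of 8 tested, with a median of -0.15. None passed the adjusted threshold in limma, and by p-values under 0.05 before adjustment the counts were 3 lower and 0 higher. Among all 17491 tested probe sets, 8646 were below 0, and by that p 1650 were lower and 2499 higher. Hand2 was the 1 gene of the list above 0, at 0.14. Msx1, a homeobox factor of the receptive epithelium, was 6.96, 6.18, 7.12 and 6.80 on the pregnant arrays, against 7.51, 7.60, 7.33 and 7.07 on the pseudopregnant arrays. It differed by -0.61 ± 0.19 (SE, limma adjusted p = 0.0998). Klf9, a zinc finger partner of the progesterone receptor, differed by -0.13 ± 0.05 (SE, adjusted p = 0.15), and its groups were apart. Sox17, an epithelial transcription factor, differed by -0.36 (adjusted p = 0.29). The list also held Hsd11b2, an enzyme that inactivates glucocorticoids and is not known to restrain estrogen action, which differed by -0.18 (adjusted p = 0.21). Without Hsd11b2, 6 of 7 were below 0, 2 were lower and 0 higher by p-values under 0.05 before adjustment, and the median was -0.13. Without pregnant replicate 2 the median of the list of 8 was -0.09 and Sox17 differed by -0.13.

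Other cell types were read from the same arrays. Among all tested probe sets, 1.41% passed the adjusted threshold in limma as higher in pregnant uteri and 0.412% as lower. Of 11 macrophage genes, 7 rose in pregnant uteri, with 1 to 4 of 11 passing when any 1 array was left out, and their summed intensity was 1854 to 2287, against 1485 to 1594 in pseudopregnant uteri. Of 9 tested gland genes, 1 fell, Wfdc3, by 0.24 on the log2 scale (limma adjusted p = 0.049). The list had a lower call under 2 of 17 alternatives. Of the 9, 6 had a difference below 0 and 3 above, with a median of -0.14. Prss28 and Prss29, serine proteases of the uterine glands, differed by 1.78 ± 0.65 (SE, adjusted p = 0.14) and 1.74 ± 0.63 (SE, adjusted p = 0.14), or 1.04 and 1.09 without pregnant replicate 2. The summed intensity of all 10 measured gland genes was 972 to 3274 in pregnant uteri, with the highest on replicate 2, against 1038 to 1366 in pseudopregnant uteri. Of 10 stromal genes none passed the threshold, and their sum was 14667 to 15529 in pregnant uteri, against 14039 to 14886 in pseudopregnant uteri. Of 8 muscle genes 1 fell, Myocd, by 0.27 on the log2 scale (adjusted p = 0.0497), and the list had a lower call under 5 of 17 alternatives. No ovary or oviduct gene was tested, and 7 of 8 blastocyst genes were above the line on no array. The other was Eomes, a T-box factor of trophoblast and also of natural killer cells. It was 5.41, 6.28, 5.69 and 5.75 on the pregnant arrays, against 5.17, 4.79, 5.02 and 5.27 on the pseudopregnant arrays, and differed by 0.72 ± 0.17 (SE, adjusted p = 0.057). It entered the test only through the pregnant arrays, since all 4 pseudopregnant values lay below the line. The part of these cell types in the member values was not tested.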

How the data were processed

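Total uterine RNA of 8 mice was hybridised to 1-colour arrays. The authors deposited 1 table of linear intensity values for 35556 probe sets, made with RMA, per the submitters' processing notes; the build behind the array's annotation is not stated. RMA normalizes between arrays, so shifts of the whole transcriptome cannot be seen. From the deposited intensities log2 values were taken. The 6617 probe sets numbered below the first one in the gene table are taken, from their numbering alone, to be controls of the array and were removed. Of the 28939 others, 21789 had 1 gene symbol, 1621 several and 5529 none.

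Probe sets above the 40th percentile of the array on 4 or more of 8 arrays were tested (17491). Groups came from the sample titles, which call the samples biological replicates, and were compared with limma 3.58.1 (lmFit and eBayes, R 4.3.3), with p-values adjusted by Benjamini-Hochberg over all tested probe sets. Exact permutation tests used all 70 arrangements and were two-sided. A difference is in log2 units, pregnant minus pseudopregnant, with its standard error. The number of arrays, 4 a group, limits the precision. The procedure was tested on simulated data with independent normal noise. These held no outlying array and no effect shared among probe sets, so they do not cover the influence of single arrays.

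Alternatives were other filters, scalings, variance models, a replicate block and each array left out. The 9 genes, the gene lists and the named genes were chosen with earlier results of these data known. In the text stand all 9 genes, up to 4 genes of a list by smallest p, any measured relative, and the nearest genes by correlation; genes outside this rule were named after their values were seen. Promoters came from RefSeq (GRCm38.p6) and were read with Python 3.11.15 and aligned with Biopython 1.88. Figures were drawn with matplotlib 3.10.9.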

Additional observations from a re-analysis of the deposited data

Results flagged for a closer look

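In 122 groups of 4 arrays, from 61 genes, the highest or lowest array stood apart from the other 3 by Dixon's criterion in 11. Chance flags about 1 group in 20 where genes are unrelated. These genes share arrays, and Ap1s3, Slc2a3 and Vtcn1 were picked for their likeness to Muc1 or Greb1. The count of 11 is therefore not to be set against that share. Of the 11, 5 were pregnant replicate 2, the array that also stood apart on the first principal component. On it Muc4 was 5.78 (5.37 to 5.41 on the other 3 pregnant arrays), Olfm1 was 7.67 (6.59 to 6.73) and Wnt7b was 6.53 (5.29 to 5.47). On the same array Sox17 was 6.73 (7.57 to 7.68) and Ap1s3, named for its likeness to Muc1, was 7.98 (8.78 to 8.88).

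Pseudopregnant replicate 2 stood apart for Greb1, at 6.09 against 6.41 to 6.43 in the rest of its group. The same array gave 8.57 for Vtcn1, the gene most like Greb1, against 8.97 to 9.02. Pseudopregnant replicate 4 stood apart for Olfml3 at 10.19 (9.93 to 9.96) and for Slc2a3 at 9.23 (9.60 to 9.66). It also stood apart for Sprr2k at 3.78 (4.11 to 4.16), which lay below the filter line. Pregnant replicate 1 stood apart for Wfdc3 at 5.70, against 5.60 on each of the other 3 pregnant arrays.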

How the results depend on the processing

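Under all 17 alternatives, which included other filters, scalings and variance models, a replicate block and each array left out, the count of the 9 genes past the threshold was 0. Muc1, Ltf, Lcn2, Olfm1 and Padi2 kept the sign of their difference in all 17. With 1 array left out, Muc1 ran from -0.41 to -0.21, Olfm1 from 0.14 to 0.50, Ltf from -0.34 to -0.00054, Lcn2 from 0.037 to 0.17 and Padi2 from 0.14 to 0.32. Muc4 ran from -0.016 to 0.12, Greb1 from -0.0080 to 0.18 and Sprr2f from -0.64 to 0.38, and all of these changed sign; the cause was not tested. Without pregnant replicate 2, Muc4 was -0.016, Greb1 -0.0080 and Sprr2f 0.21, and without pseudopregnant replicate 2, Sprr2f was 0.38. Clca1, which had no test across genes, ran from -0.12 to 0.22.

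The number of all probe sets past the threshold, 319, moved more: it was 54 with no filter, 710 with a trended, robust variance, and 40 to 235 with 1 array left out, the lowest without pseudopregnant replicate 1 or 3. The share of these that was higher in pregnant uteri was 77.4%, against 67.5% when quantile normalization was repeated and 68.7% after cyclic loess. Olfml2a passed the threshold under 10 of 17 alternatives and Olfml2b under 9. The same replicate numbers occur in both groups, and the labels do not say whether same-numbered samples share anything else. Same-numbered arrays correlated in their deviations at 0.24, 0.016, -0.10 and 0.044, and 2 of 4 correlated best with their own number. The replicate block moved the SE of Ltf from 0.21 to 0.065, that of Lcn2 from 0.094 to 0.062 and that of Greb1 from 0.12 to 0.14. With the replicate block 174 probe sets passed, 0 of them among the 9 genes. Values near the 40th percentile line, those of Muc4 and Clca1, have little signal over background, so a change there could be missed. Single values of other genes came near it too. Sprr2f was 5.33 on pseudopregnant replicate 1, with the line at 5.32, and Ltf was 5.35 on pregnant replicate 1, with the line at 5.26.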
